A study of Mus musculus with 11 samples.

Results

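The 10 genes described here encode 4 perilipins, Plin2, Plin3, Plin4 and Plin5, and 6 enzymes or enzyme regulators of lipolysis, Pnpla2, Abhd5, G0s2, Lipe, Mgll and Hilpda. They were chosen by name, and each of the 10 had a row among the 23420 genes of the normalised count table. Earlier results of these data were known when they were chosen. Shares of members passing, set beside shares of all genes, are therefore descriptive. Total RNA from heart tissue was sequenced in 11 mouse libraries. The libraries fall into 4 groups, named as the labels name them: Control (n = 2), EC cd36 KO (n = 3), MHC cd36 KO (n = 3) and Total cd36 ko (n = 3). Cd36 encodes a transporter that takes up long-chain fatty acids. EC cd36 KO hearts carry a Cd36 deletion made with Tie2-cre in endothelial cells (a driver also known to act in blood-forming lineages), and MHC cd36 KO hearts carry one made with MHC-cre in cardiomyocytes. The strain field is the same for all 11 libraries and describes crosses of Cd36 loxp mice. The labels do not say how the total knockout was made or whether the Control mice carried a Cre, and they give no age or sex. They also do not say whether the libraries of a group came from separate animals, and the p-values therefore reflect only library-to-library spread, which may be technical. The question the design sets is how loss of endothelial Cd36 alters lipid and glucose metabolism.

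The normalised count of Cd36 was 44529.6 and 35425 in Control, 30308, 27804 and 25759 in EC cd36 KO, 15792, 21610.2 and 21363 in MHC cd36 KO, and 18847, 23452 and 21266 in Total cd36 ko. All 9 knockout libraries were below both Control libraries, and Cd36 reads remained in every one. Cd36 fell in MHC cd36 KO by 1.03 ± 0.17 on the log2 scale (SE, limma adjusted p = 0.00863), while EC cd36 KO (−0.51, adjusted p = 0.298) and Total cd36 ko (−0.91, adjusted p = 0.0809) did not pass. The means were 69.9% of Control in EC cd36 KO, 49.0% in MHC cd36 KO and 53.0% in Total cd36 ko. Total cd36 ko did not pass against MHC cd36 KO (0.12, limma adjusted p = 0.638), whereas EC cd36 KO was higher than MHC cd36 KO (0.52, 0.0298). In whole tissue, fewer cells of a type and less RNA per cell cannot be told apart. Replicate numbers were assigned here and are not in the labels. In replicate order, the label numbers are 5059 and 5061 in Control and 5051, 5049 and 5086 in EC cd36 KO. They are 4920, 4923 and 4922 in MHC cd36 KO and 5222, 5213 and 5214 in Total cd36 ko. EC cd36 KO replicate 1 held 2268403 reads and the other 10 libraries held 11157062 to 20105673. The label numbers of the MHC cd36 KO libraries (4920 to 4923) and of the Total cd36 ko libraries (5213 to 5222) form runs of their own, whereas Control and EC cd36 KO share a run (5049 to 5086). What these numbers stand for is not stated. If they mark a batch, it cannot be told apart from the group in any comparison except EC cd36 KO with Control.

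Fatty acids that enter a cardiomyocyte are either oxidised or stored for a short time as triglyceride in lipid droplets, whose surface is coated by perilipins. Stored triglyceride is released in steps: Pnpla2 (adipose triglyceride lipase) removes the first fatty acid, Lipe (hormone-sensitive lipase) acts on the diacylglycerol and Mgll (monoacylglycerol lipase) on the monoacylglycerol. Abhd5 (CGI-58) activates Pnpla2, whereas G0s2 and Hilpda inhibit it. Plin5, found mostly in oxidative tissue such as the heart, binds Pnpla2 and Abhd5 and tethers droplets to mitochondria. Several of these genes are known targets of the fatty acid-activated PPAR transcription factors, and Hilpda is also induced by hypoxia.

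Plin3, Plin4 and Plin5 lie together on mouse chromosome 17 (mm10, GENCODE vM21). Plin4 spans chr17:56100591-56109803, Plin5 chr17:56111601-56117596 and Plin3 chr17:56277476-56292873, all on the minus strand. Plin4 and Plin5 are 1797 bases apart, and 159879 bases separate Plin5 from Plin3. Pnpla2 spans chr7:141455198-141460743 on the plus strand. These 4 genes are the ones that differed among the groups (below), and the letters upstream of their RefSeq start sites (GRCm38.p6, the build of mm10) are shown for that reason. Each sequence is the part of the 250 bases before the start that no annotated exon covers, read 5′ to 3′ along the gene's strand. Capitals mark matches on either strand to GGGCGG, the GC box read by Sp1-type factors, or to AGGTCA, the half-site read by nuclear receptors such as the PPARs.
Plin3, chr17:56290512-56290761, minus strand: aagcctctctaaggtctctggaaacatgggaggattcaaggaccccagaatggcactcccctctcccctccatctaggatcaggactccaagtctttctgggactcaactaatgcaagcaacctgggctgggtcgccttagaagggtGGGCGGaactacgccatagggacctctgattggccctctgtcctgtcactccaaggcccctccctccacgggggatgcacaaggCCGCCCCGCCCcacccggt
Plin4, chr17:56109949-56110032, minus strand: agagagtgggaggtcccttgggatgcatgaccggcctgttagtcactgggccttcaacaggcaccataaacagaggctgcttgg
Plin5, chr17:56117607-56117798, minus strand: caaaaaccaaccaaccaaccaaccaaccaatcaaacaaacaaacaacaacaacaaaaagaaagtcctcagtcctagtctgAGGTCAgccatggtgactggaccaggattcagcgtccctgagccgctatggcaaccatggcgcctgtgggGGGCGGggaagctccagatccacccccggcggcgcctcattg
Pnpla2, chr7:141454938-141455187, plus strand: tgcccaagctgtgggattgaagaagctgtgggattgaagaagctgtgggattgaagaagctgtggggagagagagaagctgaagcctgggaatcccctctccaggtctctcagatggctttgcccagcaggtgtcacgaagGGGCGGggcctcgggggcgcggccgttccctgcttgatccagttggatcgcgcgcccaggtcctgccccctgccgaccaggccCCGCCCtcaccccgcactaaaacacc
Of all 32851 RefSeq windows of 250 bases, 32.7% held GGGCGG and 14% held AGGTCA. Plin3 had 3 matches to GGGCGG, starting at −103, −19 and −14 from the start site, the last pair overlapping. Pnpla2 had 2, at −109 and −26. Plin5 had 1 match to GGGCGG at −100 and 1 to AGGTCA at −170 before the first of its 2 RefSeq starts. The 84 bases left for Plin4 held neither, and none of the 4 stretches held CACGTG (in 6.0% of all windows), GTAAACA (3.2%) or TATAAA (12.4%). Among the other members, AGGTCA was found in the 250 bases before the starts of Plin2 (at −218) and Abhd5 (at −69). GGGCGG was found before a start of Lipe (6 matches), Abhd5, G0s2, Mgll and Hilpda, and not of Plin2. It was thus not particular to the genes that differed.

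Compared per kilobase of annotated exon, Pnpla2 was the highest of the 10 in Control hearts, at 5629 ± 215 normalised counts per kb (SD, n = 2). Plin5 followed at 2297 ± 218, then Plin3 at 1440.0 ± 8.68 and Plin4 at 1174 ± 67.7. Mgll (790.6 ± 164), Plin2 (579.4 ± 20) and G0s2 (532.4 ± 79.9) formed a middle tier in which Plin2 and G0s2 did not differ beyond their spread. Lipe stood at 291 ± 56.0, Abhd5 at 160.1 ± 15.0 and Hilpda lowest at 64.84 ± 1.02. In EC cd36 KO the order of Plin5 (2130.0 ± 285) and Plin3 (2050.0 ± 8.83) was within their spread, and in Total cd36 ko Plin3 (1806 ± 61.8) stood at the level of Plin5 (1685 ± 173). In MHC cd36 KO, Plin5 (1583 ± 164) and Plin3 (1408 ± 156) overlapped as well. In Control alone of the 4 groups, Plin5 exceeded Plin3 by more than the sum of their SDs, a description with no test. Exons of 4 members overlap a gene on the opposite strand: Plin4 (17 bases, Hdgfl2), Abhd5 (950 bases, A730085K08Rik), Lipe (918 bases, 4732471J01Rik) and Mgll (167 bases, Gm26588). The antisense partner of Lipe had normalised counts of 0 to 24.73 and that of Abhd5 0 to 0.8526. The strand setting of the counting is not given in the sources used here, so reads in those stretches cannot be assigned to a strand.

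All 10 genes passed the filter for testing (a mean normalised count of at least 10 over the 11 libraries). A moderated F test over the 4 groups (limma on log2 of the normalised count plus 1, Benjamini-Hochberg adjusted over 12976 genes) called 4 of 10 members: Plin3 (adjusted p = 0.00738), Plin4 (0.0127), Plin5 (0.0308) and Pnpla2 (0.0337). The same test called 14.3% of all tested genes. G0s2 and Lipe (both 0.151), Hilpda (0.318), Abhd5 (0.417), Mgll (0.834) and Plin2 (0.842) did not pass. Single libraries changed the F test result: without Control replicate 1, EC cd36 KO replicate 2, MHC cd36 KO replicate 1 or MHC cd36 KO replicate 3, it called 2 members, Plin3 and Plin4, and without Total cd36 ko replicate 1 it called 5, adding Plin2. Of the 6 other tested genes between Plin4 and Plin3 on chromosome 17 (Dpp9, Fem1a, Lrg1, Sema6b, Ticam1 and Tnfaip8l1), 0 passed the F test, by limma. Fold changes below are on the same log2(value + 1) scale, with SE, and a confidence interval in brackets is the 95% interval.

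**Figure D1:**
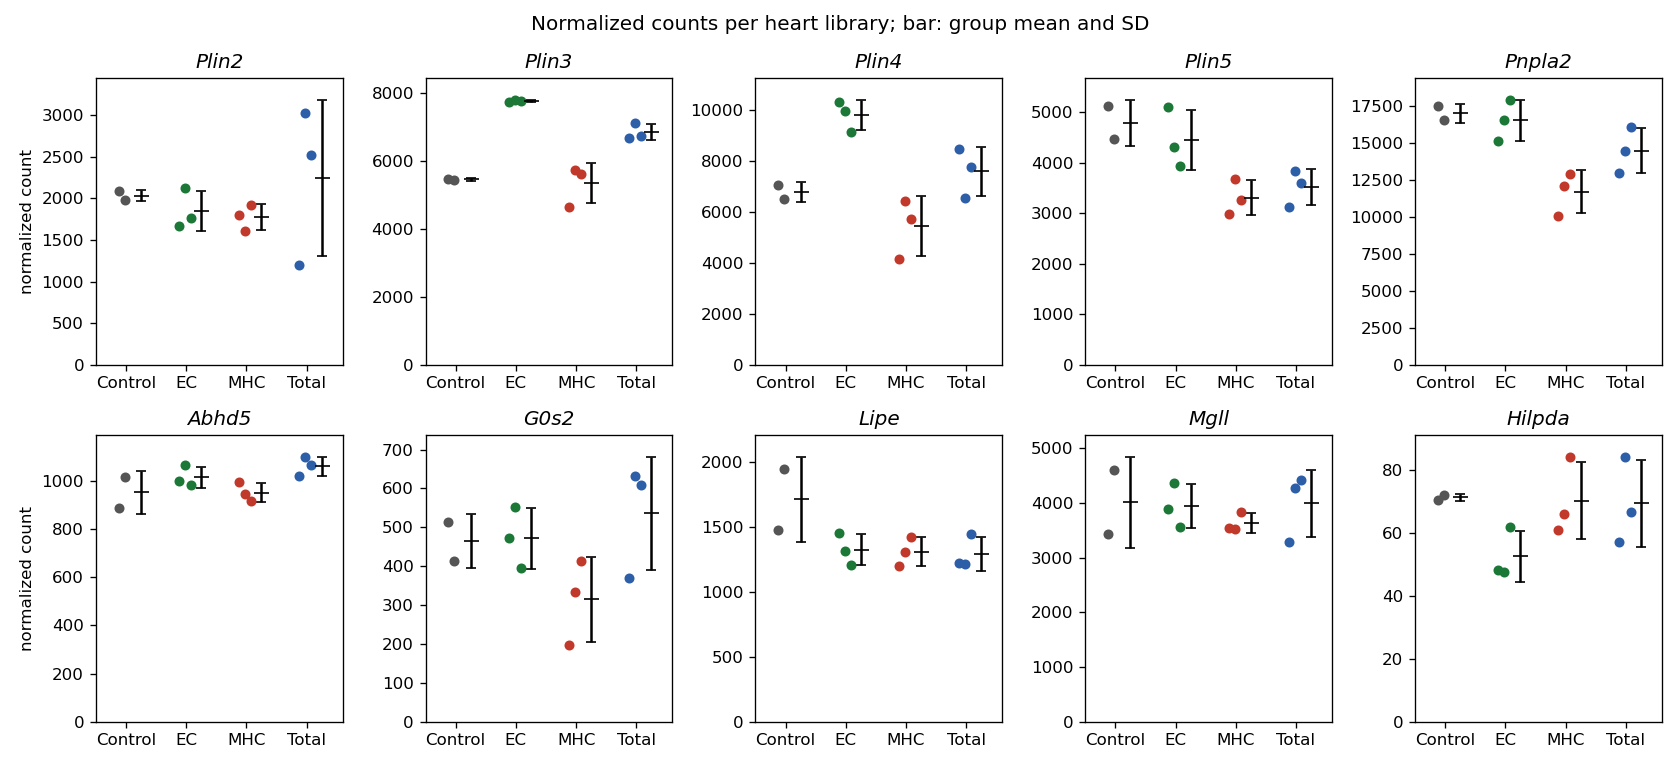
Normalised count of each of the 10 genes in each of the 11 libraries (points, vertical axis from 0), by group on the horizontal axis; bars mark group means and error lines the SD. The 3 EC cd36 KO libraries of Plin3 sit between 7740.1 and 7800.3, above all others, and the 3 MHC cd36 KO libraries of Pnpla2, between 10058 and 12907, below all others.

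As normalised counts, Plin3 and Plin4 were highest in the endothelial knockout, and Plin5 was low in the cardiomyocyte and total knockouts. Plin5 thus had another pattern than its neighbours Plin3 and Plin4, a description with no test between genes. Plin3, a broadly expressed perilipin that moves from the cytosol onto young droplets, had normalised counts of 5473 and 5427 in Control, 7740.1, 7800.3 and 7745 in EC cd36 KO, 4653, 5725 and 5618 in MHC cd36 KO, and 6678, 7107 and 6732 in Total cd36 ko. The EC cd36 KO libraries were the highest, the Total cd36 ko libraries came next, and both groups lay apart from each other and from the other 5 libraries. The EC cd36 KO mean was 142.4% of Control, a difference of 0.51 ± 0.10 [0.29, 0.73] that missed the threshold after adjustment (limma unadjusted p = 3.04e-04, adjusted p = 0.0725). The shallow library EC cd36 KO replicate 1 (7740.1) was not apart from its group.

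No member passed between EC cd36 KO and Control in the limma fit, which called 0.316% of all genes there (41 of 12976). At an unadjusted p under 0.05 there were 3 members, against 10.5% of all genes. edgeR on the recovered reads called 0 members (0.385% of all genes) and DESeq2 called 1 (1.3% of all genes), Plin3 (log2 difference 0.51, adjusted p = 6.27e-04). Plin3 also passed in this comparison without MHC cd36 KO replicate 1 (limma adjusted p = 0.00862). Against MHC cd36 KO, where limma called 4 of 10 members higher (Plin3, Plin4, Plin5 and Pnpla2) against 8.72% of all genes higher and 19.1% in either direction, Plin3 was higher in EC cd36 KO by 0.55 ± 0.09 (adjusted p = 0.00241), and the call held in 22 of 22 alternatives (0.42 to 0.60). Per summed count of cardiomyocyte markers, however, the EC cd36 KO and MHC cd36 KO libraries overlapped for Plin3 (0.32 to 0.42 and 0.24 to 0.49 above the Control mean, log2). In Total cd36 ko, Plin3 was at 125.5% of Control (0.33 ± 0.10, adjusted p = 0.366). It exceeded MHC cd36 KO by 0.36 ± 0.09 (adjusted p = 0.02), where 16.4% of all genes passed and 8.2% were higher. That call was lost without Total cd36 ko replicate 1 (0.38, adjusted p = 0.0501), replicate 2 (0.34, 0.0717) or replicate 3 (0.38, 0.0607), all by limma. Per summed cardiomyocyte markers, Plin3 was not higher in Total cd36 ko (0.13 to 0.33) than in MHC cd36 KO (0.24 to 0.49).

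Plin4, a perilipin of adipose tissue and striated muscle, had normalised counts of 7057 and 6504 in Control, 10308, 9974 and 9149 in EC cd36 KO, 4154, 6442 and 5735 in MHC cd36 KO, and 8450.2, 6533 and 7778 in Total cd36 ko. The EC cd36 KO libraries were above the other 8, the MHC cd36 KO libraries below both Control libraries, and Total cd36 ko overlapped Control. The EC cd36 KO mean reached 144.7% of Control, with 0.53 ± 0.17 [0.17, 0.89] and an adjusted p of 0.264 by limma. Plin4 was higher in EC cd36 KO than in MHC cd36 KO by 0.87 ± 0.15 (limma adjusted p = 0.00255), also in 22 of 22 alternatives (0.65 to 1.01). This was the widest difference of any member in the 6 pairwise comparisons. Per summed cardiomyocyte markers it was narrower, with EC cd36 KO at 0.35 to 0.42 and MHC cd36 KO at −0.01 to 0.09 from the Control mean. Plin4 was also higher in Total cd36 ko than in MHC cd36 KO, by 0.49 ± 0.15 (limma adjusted p = 0.0395). That call depended on single libraries. Without MHC cd36 KO replicate 1, the lowest Plin4 library, the difference was 0.31 (limma adjusted p = 0.112). Without Total cd36 ko replicate 1 it was 0.41 (0.137), and without Total cd36 ko replicate 3 it was 0.47 (0.116). The call was also lost without MHC cd36 KO replicate 3 (0.0598) or EC cd36 KO replicate 2 (0.0567). It held in 12 of 22 alternatives.

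Cell-type marker levels also differed between groups. The summed normalised count of 7 endothelial markers ran from 16575 to 18313 in EC cd36 KO against 14774 to 15577 in Control (114.4% in the mean). Of the 7, 6 were positive and Emcn was negative (−0.36), with a median of 0.19, and the limma test passed 0 of them (4 had an unadjusted p under 0.05). The sum of 8 cardiomyocyte markers ran from 1225847 to 1312284 against 1146233 to 1164283 (110.1%), most of it through Myh6 (428789.6 in Control and 533732 in EC cd36 KO). Of the 8, 5 were positive and 3 negative, with a median of 0.07, and 0 passed (0 at an unadjusted p under 0.05). Between EC cd36 KO and MHC cd36 KO, 3 of 8 cardiomyocyte and 5 of 7 endothelial markers were higher in EC cd36 KO, and 8 of 8 macrophage and 5 of 6 fibroblast markers lower. Between Total cd36 ko and MHC cd36 KO, 1 of 8 and 1 of 7 were higher, and 8 of 8 and 6 of 6 lower. Of all tested genes, limma called 8.72% higher and 10.4% lower in EC cd36 KO than in MHC cd36 KO. For Total cd36 ko minus MHC cd36 KO it called 8.2% higher and 8.2% lower.

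Dividing each library by its marker sum changed the Plin3 and Plin4 comparisons, given here as log2 distance from the Control mean and with no test. Per summed cardiomyocyte markers, Plin3 was 0.32, 0.37 and 0.42 in EC cd36 KO, 0.49, 0.24 and 0.27 in MHC cd36 KO and 0.13, 0.33 and 0.21 in Total cd36 ko. The 3 knockout groups thus overlapped for Plin3, and each of their libraries was above Control (±0.02). Plin4 on that scale was 0.42, 0.41 and 0.35 in EC cd36 KO, 0.02, 0.09 and −0.01 in MHC cd36 KO and 0.16, −0.11 and 0.11 in Total cd36 ko. EC cd36 KO stayed above the other groups for Plin4, while MHC cd36 KO and Total cd36 ko lay around Control (±0.07). Per summed endothelial markers, Plin3 was 0.33, 0.25 and 0.38 in EC cd36 KO, −0.05, 0.29 and 0.30 in MHC cd36 KO and 0.44, 0.43 and 0.34 in Total cd36 ko. Plin4 was 0.42, 0.29 and 0.31, then −0.53, 0.15 and 0.01, then 0.46, −0.01 and 0.24, in the same order. On that scale EC cd36 KO overlapped MHC cd36 KO for Plin3 and not for Plin4, and Total cd36 ko overlapped MHC cd36 KO for Plin4 and not for Plin3. The defining adipocyte markers were at or near 0: Lep was at 0 in every library and all 7 adipocyte markers together summed to 0 to 38.4 normalised counts per library, beside Plin4 counts of 4154 or more and Lipe counts of 1196 or more, 2 genes that adipocytes also express.

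Plin5 had normalised counts of 5116 and 4472 in Control, 5099.6, 4304 and 3934 in EC cd36 KO, 2989, 3669 and 3253 in MHC cd36 KO, and 3123, 3832 and 3594 in Total cd36 ko. The MHC cd36 KO and Total cd36 ko libraries overlapped each other and all 6 lay below the other 5. EC cd36 KO overlapped Control. Between MHC cd36 KO and Control, limma called 2 members, Plin5 and Pnpla2, both lower, against 2.4% lower among all genes and 5.7% in either direction. Plin5 fell to 68.9% of Control, by 0.54 ± 0.13 [−0.83, −0.25] on the log2 scale (adjusted p = 0.0367). Total cd36 ko stood at 73.3% of Control with a similar estimate, −0.45 ± 0.13, that did not pass (adjusted p = 0.360). The difference between those 2 knockouts was 0.09 (adjusted p = 0.670). Plin5 was higher in EC cd36 KO than in MHC cd36 KO by 0.42 ± 0.12 (adjusted p = 0.0281), although the 2 groups overlapped per summed cardiomyocyte markers (−0.37 to −0.09 and −0.33 to 0.04 from the Control mean, log2). It was lower in Total cd36 ko than in EC cd36 KO by 0.34 ± 0.12, which did not pass (adjusted p = 0.378).

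Both Plin5 calls depended on single libraries, by limma throughout. Against Control the adjusted p was 0.277 without Control replicate 1 (−0.44), 0.0546 without Control replicate 2 (−0.64), 0.0996 without MHC cd36 KO replicate 1 (−0.47) and 0.0810 without MHC cd36 KO replicate 3 (−0.53). It was also lost without EC cd36 KO replicate 2 (0.0566) or Total cd36 ko replicate 3 (0.0586), which enter only through the shared spread. The Plin5 difference between EC cd36 KO and MHC cd36 KO was lost without EC cd36 KO replicate 1 (0.32, adjusted p = 0.109), EC cd36 KO replicate 2 (0.44, 0.0624), MHC cd36 KO replicate 1 (0.36, 0.0897) or MHC cd36 KO replicate 3 (0.42, 0.0733). The sign of both differences was kept in 22 of 22 alternatives.

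Plin2, the perilipin that coats droplets in most cell types and is stabilised by stored lipid, had normalised counts of 2085 and 1985 in Control, 1668, 2128 and 1764 in EC cd36 KO, 1803, 1607 and 1924 in MHC cd36 KO, and 1200.4, 3024 and 2522 in Total cd36 ko. The Total cd36 ko libraries held both the lowest and the 2 highest values of all 11, with an SD of 942.1 around a mean of 2249. Plin2 passed in none of the 6 pairwise comparisons. Its difference from Control was −0.14 ± 0.28 in EC cd36 KO (limma adjusted p = 0.906), −0.20 in MHC cd36 KO (0.747) and 0.04 in Total cd36 ko (0.987). Without the low library, Total cd36 ko replicate 1, Plin2 was higher in Total cd36 ko than in MHC cd36 KO by 0.64 (limma adjusted p = 0.0174), against 0.24 (0.571) with it and −0.03 without Total cd36 ko replicate 2.

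Pnpla2, the lipase of the first step, was lowest in the cardiomyocyte knockout. Its normalised counts were 17458 and 16539.9 in Control, 15148, 16537 and 17914 in EC cd36 KO, 10058, 12081 and 12907 in MHC cd36 KO, and 12949, 14424 and 16039 in Total cd36 ko. The MHC cd36 KO libraries were below all 8 others, those of Total cd36 ko were below both Control libraries, and EC cd36 KO overlapped Control. Pnpla2 fell in MHC cd36 KO to 68.7% of Control, by 0.55 ± 0.14 [−0.84, −0.25] (limma adjusted p = 0.0362). EC cd36 KO was at 97.3% (−0.04 ± 0.14, adjusted p = 0.948) and Total cd36 ko at 85.1% (−0.24 ± 0.14, adjusted p = 0.739). Pnpla2 was higher in EC cd36 KO than in MHC cd36 KO by 0.51 ± 0.12 (adjusted p = 0.0137). That call held in 21 of 22 alternatives and was lost without EC cd36 KO replicate 3 (0.45, adjusted p = 0.0525). Per summed cardiomyocyte markers the 2 groups overlapped for Pnpla2 (−0.35 to −0.01 in EC cd36 KO and −0.33 to −0.03 in MHC cd36 KO). The difference between Total cd36 ko and MHC cd36 KO was 0.31 ± 0.12 (adjusted p = 0.104).

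The fall of Pnpla2 against Control was lost, by limma, without Control replicate 1 (−0.51, adjusted p = 0.224), Control replicate 2 (−0.59, 0.0749) or MHC cd36 KO replicate 1 (−0.44, 0.0655). Leaving out EC cd36 KO replicate 2 (0.0593), Total cd36 ko replicate 2 (0.0567) or Total cd36 ko replicate 3 (0.0508) also ended it. It kept its sign and lay between −0.62 and −0.44 in 22 of 22 alternatives. On the recovered reads, where edgeR called 7.76% and DESeq2 9.84% of genes in this comparison, Pnpla2 and Plin5 passed with both tools.

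Cell-type marker levels stood apart in MHC cd36 KO, the group where Plin5 and Pnpla2 fell. The summed cardiomyocyte markers were 700441 to 1029436 there (78.4% of Control in the mean), with 8 of 8 markers negative, a median of −0.37 and 0 of 8 passing against Control by limma (2 at an unadjusted p under 0.05). The summed macrophage markers were 8775 to 16622 against 4739.6 to 5076 in Control (246.5%), and 8 of 8 rose. The summed fibroblast markers were 24098 to 61472 against 16414 to 17042 (233.4%), and 3 of 6 rose. Of all tested genes, limma called 3.29% higher in MHC cd36 KO than in Control. Taken per summed cardiomyocyte marker count, Plin5 in MHC cd36 KO was 0.04, −0.22 and −0.33 from the Control mean on the log2 scale, and Pnpla2 was −0.03, −0.33 and −0.17. The Control libraries lay at ±0.11 for Plin5 and ±0.05 for Pnpla2, so both genes were nearer to Control on this scale than as normalised counts, and MHC cd36 KO replicate 1 was at the Control level for both. In EC cd36 KO the ratios were −0.09, −0.30 and −0.37 for Plin5 and −0.35, −0.19 and −0.01 for Pnpla2, overlapping MHC cd36 KO for both genes. In Total cd36 ko, where the cardiomyocyte sum was 107.4% of Control and the macrophage sum 107.7%, the same ratios were −0.78, −0.37 and −0.50 for Plin5 and −0.55, −0.29 and −0.17 for Pnpla2. Every Total cd36 ko library was thus below both Control libraries for these 2 genes on that scale as well. Per summed endothelial markers the picture differed: Plin5 was −0.50, −0.16 and −0.30 in MHC cd36 KO and Pnpla2 −0.58, −0.27 and −0.14, all below Control (±0.14 and ±0.08), with replicate 1 lowest for both. In Total cd36 ko on the endothelial scale, Plin5 was −0.47, −0.28 and −0.37 and Pnpla2 −0.25, −0.19 and −0.04, the last of these within Control. The part of the macrophage and fibroblast markers in these results was not tested.

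**Figure D2:**
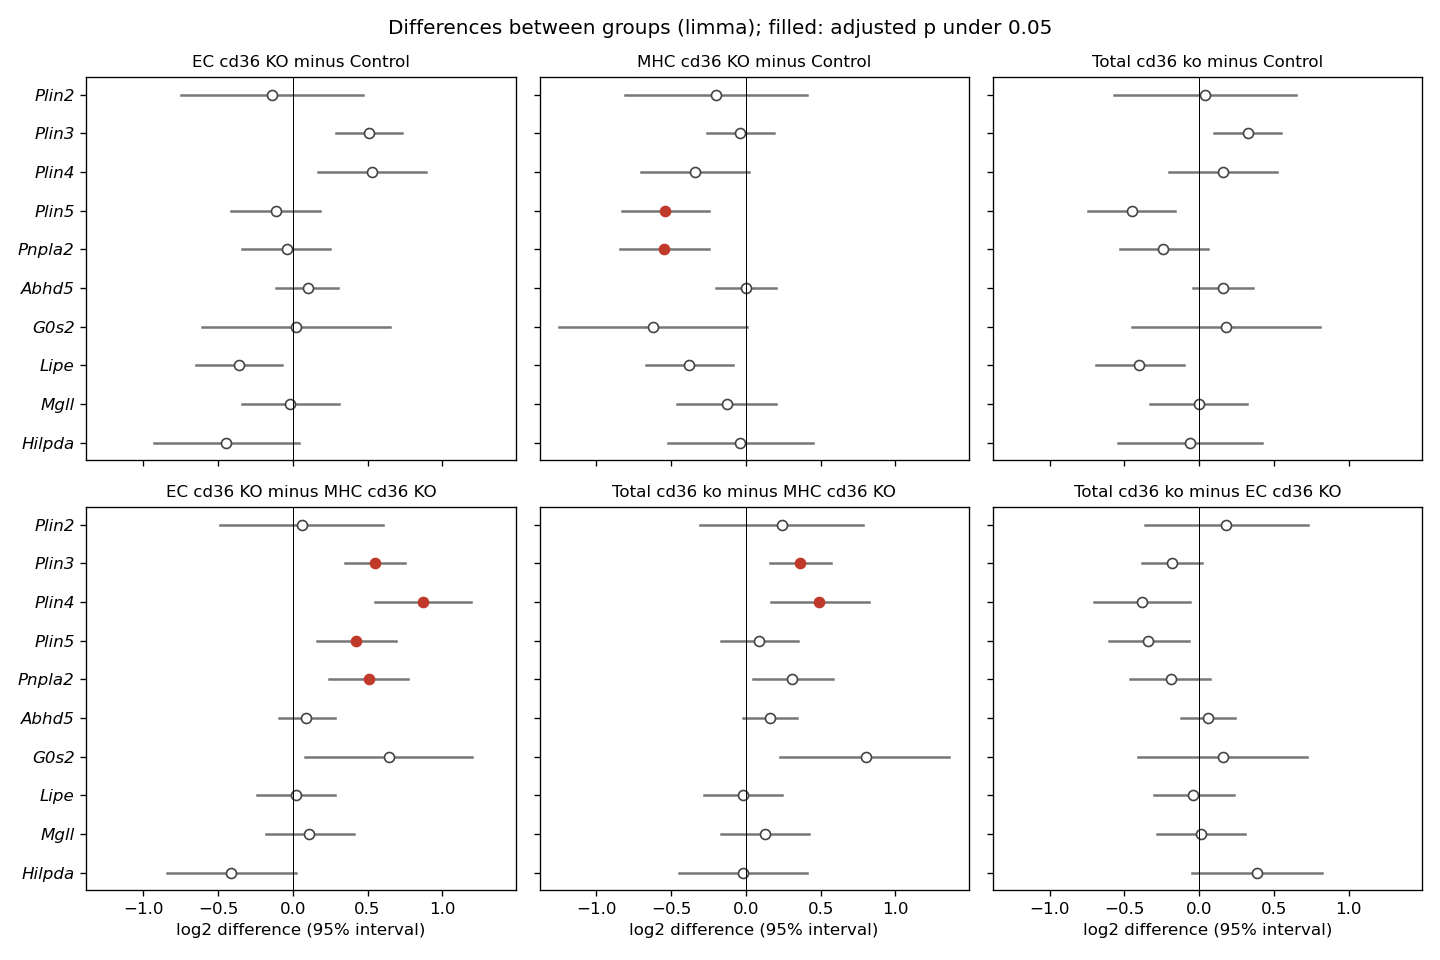
Log2 difference of each of the 10 genes with its 95% confidence interval in the 6 pairwise comparisons (horizontal axis, log2 of normalised count plus 1; filled points passed at an adjusted p under 0.05, open points did not). Plin5 and Pnpla2 lie left of 0 in MHC cd36 KO minus Control, at −0.54 and −0.55, and Plin4 lies farthest right in EC cd36 KO minus MHC cd36 KO, at 0.87.

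The regulators of Pnpla2 did not pass in any comparison of the limma fit over all 11 libraries. With array weights, which give libraries unequal weight, Hilpda passed between EC cd36 KO and MHC cd36 KO (−0.56, limma adjusted p = 0.0335). Abhd5 (0.20, 0.0381) and G0s2 (0.59, 0.0388) then passed between Total cd36 ko and MHC cd36 KO. Abhd5, the activator of Pnpla2, had normalised counts of 890.7 and 1017 in Control, 1003, 1067 and 984 in EC cd36 KO, 996, 946 and 919 in MHC cd36 KO, and 1021, 1099.9 and 1069 in Total cd36 ko. Its group means ran from 953.5 to 1063, and of the knockouts only the Total cd36 ko libraries lay above both Control libraries. Its difference from Control was 0.10 in EC cd36 KO (limma adjusted p = 0.767), 0.00 in MHC cd36 KO (0.994) and 0.16 in Total cd36 ko (0.744). G0s2, an inhibitor, had normalised counts of 513 and 415 in Control, 471, 551 and 394 in EC cd36 KO, 196, 334 and 413 in MHC cd36 KO, and 369, 633 and 608 in Total cd36 ko. The MHC cd36 KO libraries were below both Control libraries, with MHC cd36 KO replicate 3 (413.0) just under the lower one (414.5). They overlapped the other knockouts, where EC cd36 KO replicate 3 (394.3) and Total cd36 ko replicate 1 (369.2) were lower than 413.0. G0s2 was at 67.8% of Control in MHC cd36 KO (−0.62 ± 0.29, adjusted p = 0.247, and −0.31 without MHC cd36 KO replicate 1, the lowest library) and at 115.7% in Total cd36 ko (0.18, adjusted p = 0.943).

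Between Total cd36 ko and MHC cd36 KO, G0s2 differed by 0.80 ± 0.26 and narrowly missed the threshold (limma adjusted p = 0.0546). It passed there with edgeR (0.78, adjusted p = 0.0464) and DESeq2 (0.77, 0.0149) on the recovered reads, and by limma without MHC cd36 KO replicate 3 (1.02, 0.0298) or Total cd36 ko replicate 1 (1.04, 0.0296). G0s2 also passed by limma with array weights (0.59, 0.0388) and without the first library of each knockout group together (0.74, 0.0352). The gap between EC cd36 KO and MHC cd36 KO for G0s2 was 0.64 ± 0.26 (limma adjusted p = 0.103), which passed without MHC cd36 KO replicate 3 (0.87, 0.0493). Without MHC cd36 KO replicate 1 these G0s2 differences were 0.49 and 0.33. Hilpda, the hypoxia-inducible inhibitor, had the lowest level, with normalised counts of 70.7 and 72.3 in Control, 48.3, 47.7 and 61.9 in EC cd36 KO, 60.9, 66.1 and 84.2 in MHC cd36 KO, and 57.3, 84.4 and 66.7 in Total cd36 ko. The EC cd36 KO libraries were below both Control libraries, at 73.6% in the mean (−0.45 ± 0.22, limma adjusted p = 0.515). EC cd36 KO replicate 1 rested on 8 reads for Hilpda, so its value there is imprecise.

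The enzymes of the later steps did not pass in any comparison either. Lipe had normalised counts of 1479.9 and 1946 in Control, 1450.1, 1315 and 1210.4 in EC cd36 KO, 1196, 1310.0 and 1423 in MHC cd36 KO, and 1225, 1212 and 1443 in Total cd36 ko. All 9 knockout libraries were below both Control libraries, which held for 2.09% of all tested genes (271 of 12976) and for 1 of the 10 members. The lower Control library exceeded the highest knockout library only narrowly, and the Control pair was spread widely (1713 ± 329.5, SD, n = 2). The group means were 77.4%, 76.5% and 75.5% of Control in EC cd36 KO, MHC cd36 KO and Total cd36 ko. The 3 differences, which share the Control libraries, were −0.36 ± 0.13 (limma adjusted p = 0.371), −0.38 ± 0.13 (0.127) and −0.40 ± 0.13 (0.414). Without Control replicate 2, the higher one, they were −0.16, −0.18 and −0.20, and without Control replicate 1 −0.56, −0.57 and −0.59. Mgll had normalised counts of 3425 and 4602 in Control, 3891, 4368 and 3562 in EC cd36 KO, 3536, 3520.2 and 3832 in MHC cd36 KO, and 3284, 4280.1 and 4409 in Total cd36 ko. The spread of the Control pair covered 8 of the 9 knockout libraries, and the differences from Control were −0.02, −0.13 and 0.00 (adjusted p = 0.985, 0.684 and 0.995).

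Read as a group, the 10 members had a median log2 difference from Control of −0.03 in EC cd36 KO, −0.27 in MHC cd36 KO and 0.02 in Total cd36 ko. The medians over all tested genes were −0.01, 0.00 and 0.00. Between knockouts the members' median was 0.27 for EC cd36 KO minus MHC cd36 KO, 0.20 for Total cd36 ko minus MHC cd36 KO and −0.01 for Total cd36 ko minus EC cd36 KO, beside 0.00, −0.01 and 0.01 over all genes. In MHC cd36 KO 9 of 10 estimates were negative, and 6 of 10 members lay wholly below Control (Plin2, Plin4, Plin5, Pnpla2, G0s2 and Lipe), against 18.3% of all genes. The cardiomyocyte markers went the same way there: 8 of 8 were negative, 7 lay wholly below Control and their median was −0.37. Their median was 0.45 in EC cd36 KO minus MHC cd36 KO and 0.43 in Total cd36 ko minus MHC cd36 KO. The share of the members' shift that goes with these markers was not tested. In EC cd36 KO 2 members lay wholly above Control (Plin3 and Plin4; 12% of all genes) and 2 wholly below (Lipe and Hilpda; 13.2%). In Total cd36 ko 2 lay above (Plin3 and Abhd5; 12.3%) and 3 below (Plin5, Pnpla2 and Lipe; 12.8%). No member passed between Total cd36 ko and Control by limma (0.0848% of all genes did), with 3 members at an unadjusted p under 0.05 (8.11% of genes) and 0 by edgeR (0.108% of genes) or DESeq2 (0.848%). No member passed between Total cd36 ko and EC cd36 KO either (0.0385% of genes), with 2 at an unadjusted p under 0.05 (10.4%) and 0 by edgeR (0.0308%) or DESeq2 (0.55%). Plin3, Plin4 and Plin5 lay wholly lower in Total cd36 ko than in EC cd36 KO, which 8.95% of genes did.

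**Figure D3:**
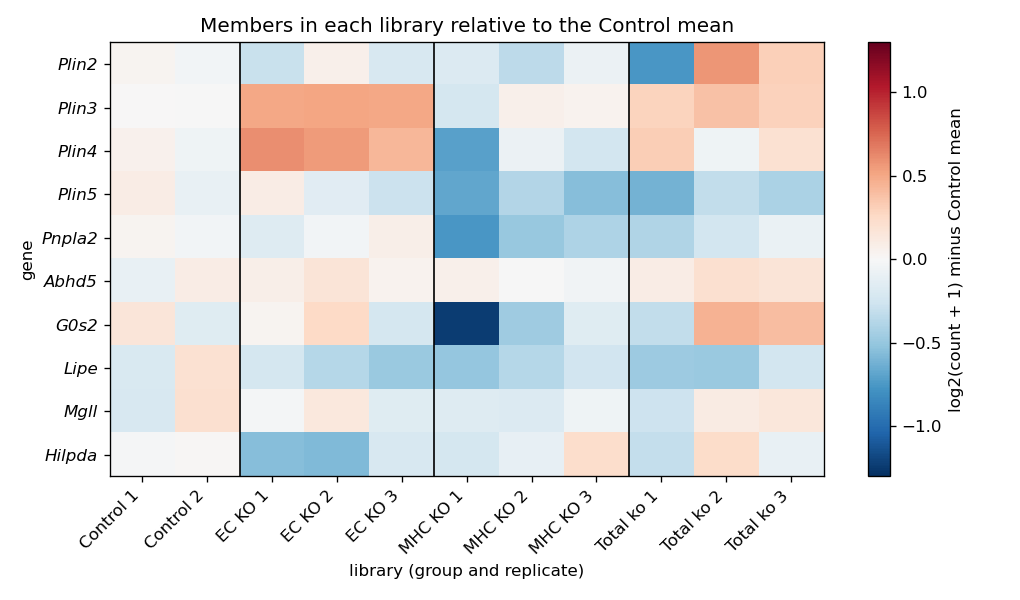
Log2 of each gene's normalised count relative to its Control mean, in each of the 11 libraries (columns, by group) for the 10 genes (rows); the colour bar gives the log2 scale. Plin3 and Plin4 are above Control in all 3 EC cd36 KO libraries, and Plin5 and Pnpla2 are below it in all 3 MHC cd36 KO and all 3 Total cd36 ko libraries.

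The balance of Plin3 to Plin5 stood above Control in every knockout library. The log2 ratio of Plin3 to Plin5, set to 0 at the Control mean, was −0.09 and 0.09 in Control, 0.41, 0.67 and 0.79 in EC cd36 KO, 0.45, 0.45 and 0.60 in MHC cd36 KO, and 0.91, 0.70 and 0.72 in Total cd36 ko. All 9 knockout libraries were above both Control libraries. Several ratios of members were examined, and the share of other gene pairs that separate in this way was not computed. As normalised counts, Plin3 was the high member in EC cd36 KO and Plin5 the low one in MHC cd36 KO. The Total cd36 ko libraries showed both. Of these differences from Control, only that of Plin5 in MHC cd36 KO passed by limma. Per summed cardiomyocyte markers, EC cd36 KO and MHC cd36 KO overlapped for both genes, so this split between the groups was not seen on that scale. The ratio of Plin4 to Plin5 was above Control in 8 of the 9, at −0.03 in MHC cd36 KO replicate 1 and 0.27 to 0.93 in the others. The ratio of Abhd5 to G0s2, activator to inhibitor, was 1.3, 0.45 and 0.11 in MHC cd36 KO against −0.25 and 0.25 in Control, so it was high in MHC cd36 KO replicate 1 and overlapped Control in replicate 3. The ratio of Plin5 to Pnpla2 was 0.06 and −0.06 in Control, 0.26, −0.11 and −0.36 in EC cd36 KO, 0.08, 0.11 and −0.16 in MHC cd36 KO, and −0.22, −0.08 and −0.33 in Total cd36 ko. It overlapped Control in EC cd36 KO and MHC cd36 KO and lay below it in all 3 Total cd36 ko libraries. These ratios describe the libraries and carry no test.

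**Figure D4:**
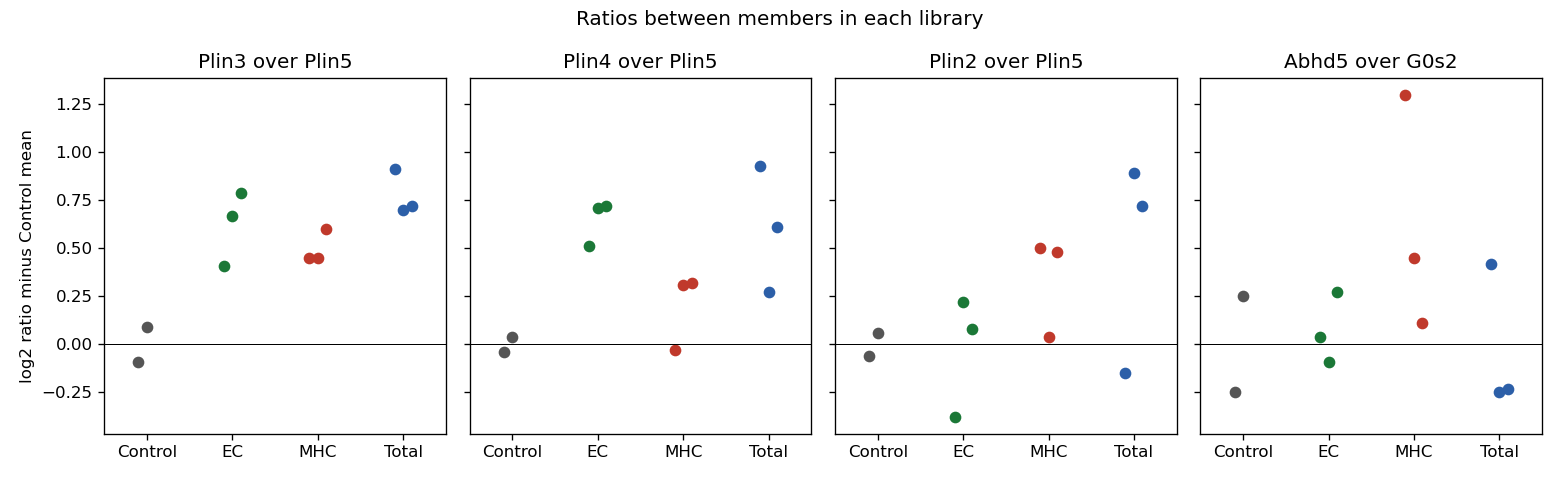
Log2 ratio of pairs of members in each library, set to 0 at the Control mean (vertical axis, log2), by group. The Plin3 to Plin5 ratio is 0.41 to 0.91 in the 9 knockout libraries against −0.09 and 0.09 in Control.

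Other lipid droplet proteins gave 9 tested genes of 11. Against Control, 0 of 9 passed by limma in EC cd36 KO and in Total cd36 ko (2 in each at an unadjusted p under 0.05). In MHC cd36 KO 2 of 9 fell, beside 2.4% of all genes. Those were Fitm1 (1359 ± 30.8 to 810.1 ± 202.6 normalised counts, −0.78 ± 0.17, adjusted p = 0.0251) and Fitm2 (2527 ± 2.05 to 1716 ± 344.3, −0.58 ± 0.14, adjusted p = 0.0324), which promote the budding of droplets from the endoplasmic reticulum. EC cd36 KO was higher than MHC cd36 KO in Fitm1 and Fitm2 and lower in Cidea and Bscl2. Cidea, which fuses droplets, stood at 417.9 ± 44.9 in EC cd36 KO and 668 ± 34.9 in MHC cd36 KO (−0.68 ± 0.11, adjusted p = 0.00230), with 618.8 ± 72.7 in Control. In Total cd36 ko it was 484.7 ± 49.0, lower than in MHC cd36 KO (−0.47 ± 0.11, adjusted p = 0.0169), the opposite direction to that of Plin3 and Plin4 in the same comparisons. Fitm1 was the other gene of the list to pass there, higher in Total cd36 ko (0.65 ± 0.16, adjusted p = 0.0156).

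Of 8 other neutral lipid hydrolases tested, 0 passed against Control in EC cd36 KO or Total cd36 ko by limma (1 in each at an unadjusted p under 0.05). In MHC cd36 KO, where 2.4% of all genes fell, 1 did: Ces1d, a carboxylesterase with triglyceride hydrolase activity (2597 ± 733.5 to 1106 ± 466.1, −1.31 ± 0.32, adjusted p = 0.0328). Against MHC cd36 KO, EC cd36 KO was higher in Ces1d, Lpl and Abhd6 and lower in Abhd12, and Total cd36 ko was higher in Ces1d and Abhd6 and lower in Pnpla3 and Lipa. Ces1d had the widest of these differences between EC cd36 KO and MHC cd36 KO, at 1.43 ± 0.28 (adjusted p = 0.00529). Lpl, which releases fatty acids from circulating lipoproteins, was at 170785 ± 23033 in EC cd36 KO and 106708 ± 26741 in MHC cd36 KO (0.70 ± 0.22, adjusted p = 0.0445). Of 14 genes for the cAMP control of lipolysis, such as beta-adrenergic receptors, adenylyl cyclases and protein kinase A subunits, 0 passed against Control by limma in any knockout (0, 5 and 1 at an unadjusted p under 0.05 in EC cd36 KO, MHC cd36 KO and Total cd36 ko). Gnai2, an inhibitory G protein subunit, was the 1 gene of that list to pass between knockouts, lower in EC cd36 KO (−0.54 ± 0.13, adjusted p = 0.0152) and in Total cd36 ko (−0.51 ± 0.13, adjusted p = 0.0221) than in MHC cd36 KO.

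PPAR factors and other PPAR targets gave 20 tested genes, with a median of −0.22 in EC cd36 KO, −0.62 in MHC cd36 KO and −0.11 in Total cd36 ko against Control. In EC cd36 KO and in Total cd36 ko 0 of the 20 passed by limma (6 and 5 at an unadjusted p under 0.05). In MHC cd36 KO 5 of 20 fell, beside 2.4% of all genes. The 4 of lowest p were Slc25a20 (4607 ± 256.1 to 2751 ± 476.4, −0.76 ± 0.14, limma adjusted p = 0.0126), Acot2 (−1.05 ± 0.21, 0.0178), Acot1 (−1.69 ± 0.37, 0.0238) and Acadm (−0.71 ± 0.17, 0.0316). Slc25a20 carries acylcarnitines into mitochondria, Acot1 and Acot2 are acyl-CoA thioesterases, and Acadm is the medium-chain acyl-CoA dehydrogenase of beta-oxidation. Ppara itself, the PPAR most active in heart, was higher than in MHC cd36 KO (1051 ± 401.3) in both other knockouts, EC cd36 KO (2408 ± 170.3, 1.27 ± 0.21, adjusted p = 0.00241) and Total cd36 ko (2386 ± 362.0, 1.25 ± 0.21, adjusted p = 0.00438). In each of these 2 comparisons 6 of the 20 genes were higher and 0 lower, beside 8.72% and 8.2% of all genes higher. Acadm and Slc25a20 were among the 4 of lowest p in both, joined by Pparg in the first and Ppargc1a in the second. The cardiomyocyte markers were also positive in 8 of 8 in both, with medians of 0.45 and 0.43, and 3 and 1 of them passed. Plin3 and Plin4 were higher in these same 2 comparisons, whereas Plin2 passed in neither. A link between these members and the PPAR list was not tested. Among 9 hypoxia-inducible genes tested, the group to which Hilpda also belongs, 0 passed against Control by limma in EC cd36 KO or Total cd36 ko (2 in each at an unadjusted p under 0.05). Pdk1 fell in MHC cd36 KO (4922 ± 349.9 to 3498 ± 226.0, −0.49 ± 0.09, adjusted p = 0.0149). EC cd36 KO exceeded MHC cd36 KO in 5 of the 9, the 4 of lowest p being Pdk1, Bnip3 (0.82 ± 0.18, adjusted p = 0.00835), Slc2a1 and Vegfa, and Total cd36 ko did so in 3 (Pdk1, Vegfa and Slc2a1), while the Hilpda estimate for EC cd36 KO minus MHC cd36 KO was negative (−0.41 ± 0.20, adjusted p = 0.167).

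The genes most like each of the 4 members that passed the F test were found by the root mean square difference of log2 values over the 11 libraries, each gene centred on its own mean, among 10361 genes with a mean of at least 50. For Plin3 they were Dyrk1a (0.0703), Cab39 (0.0727) and Tead1 (0.0758), where the median over all candidates was 0.294. Tead1 had means of 2743 in Control, 3842 in EC cd36 KO, 2752 in MHC cd36 KO and 3547 in Total cd36 ko. For Plin4 they were Appbp2 (0.118), Gpr116 (0.122) and Arl4d (0.128), against a median of 0.398. For Plin5 they were Cav1 (0.0811), Rnpc3 (0.106) and Tab3 (0.106), against 0.308. Cav1, which encodes the caveolae protein caveolin 1, had means of 5742 in Control, 5496 in EC cd36 KO, 4008 in MHC cd36 KO and 4534 in Total cd36 ko. For Pnpla2 they were Ezh1 (0.0755), Map7 (0.0868) and Rbl2 (0.0879), against 0.296. The 4 members were thus each nearest to different genes, and none of the 12 was another member.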

How the data were processed

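Strand-specific libraries were made from 400 ng of total heart RNA after ribosomal RNA removal, per the labels' protocols. The deposited signal values are counts per gene normalised by the authors with 1 factor per library. Per the submitters' processing notes the build was mm10 and the tools TopHat2, HTSeq (0.8.0) and DESeq2, whose version the notes give as 3.5; the counting mode and strand setting are not given in the sources used here. Of 257620 values, 100.0% were within 0.05 of a whole multiple of a library's step, so whole reads were recovered, and 0 sample columns were unused. The main test was limma 3.58.1 (R 4.3.3) with a trended prior on log2(value + 1) over genes with a mean of at least 10, all 11 libraries in 1 fit, and a threshold of 0.05 after Benjamini-Hochberg adjustment. It was also run on simulated counts, with planted changes larger than the member differences and no shift in cell-type markers. That run does not bear on single calls near the threshold. edgeR 4.0.16 and DESeq2 1.42.0 were run on the recovered reads as alternatives. They called 50 and 162 genes between EC cd36 KO and Control, 1007 and 1276 between MHC cd36 KO and Control, and 14 and 93 between Total cd36 ko and Control, where limma called 41, 739 and 11. Other alternatives were the pseudocount (0.5 or 5), the filter (none, or a mean of at least 50), 2 rescalings, the 2 groups alone, array weights and leaving out libraries. All 10 members are named, with the genes of each pathway list that passed (at most 4 of lowest p) and 3 most alike genes per member that passed the F test. One gene of the PPAR list is not reported here and is left out of that list's counts. Members and lists were chosen with earlier results of these data known. Ldah and Adgre1 were matched through older symbols. Promoter letters are from RefSeq (GRCm38.p6) and positions from GENCODE vM21.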

Additional observations from a re-analysis of the deposited data

How the results depend on the processing

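With 2 or 3 libraries a group, differences of the size seen here stood near the threshold. The number of members passing changed as follows by alternative, and the cause was not tested. Between EC cd36 KO and Control it was 0, and 1 (Plin3) with DESeq2 or without the first library of each knockout group together. Between MHC cd36 KO and Control it was 2, and 0 with no filter or with only the 2 groups compared, and 1 with rescaling to equal library totals (Pnpla2) or with array weights (Plin5). Between Total cd36 ko and MHC cd36 KO it was 2, and 1 (Plin3) with no filter or with only the 2 groups compared, 0 with equal library totals and 4 with array weights (adding Abhd5 and G0s2). edgeR and DESeq2 each kept Plin3 and Plin4 and added G0s2. Without the first library of each knockout group together, neither main call was kept. There Plin3 (0.29, limma adjusted p = 0.0749) and Plin4 (0.23, 0.262) were lost, and Plin2 (0.65, 0.0218) and G0s2 (0.74, 0.0352) passed instead. Between EC cd36 KO and MHC cd36 KO the number passing was 4, and 3 to 5 over the alternatives that leave out no single library, the 5 with array weights (adding Hilpda). Leaving out single libraries gave 0 to 1, 0 to 2 and 0 to 2 in these comparisons, 3 to 4 between EC cd36 KO and MHC cd36 KO, and 2 to 5 in the F test. It gave 0 to 0 between Total cd36 ko and Control and between Total cd36 ko and EC cd36 KO. Equal library totals moved the median of all genes by −0.12 between EC cd36 KO and MHC cd36 KO and by −0.14 between Total cd36 ko and MHC cd36 KO. No called member changed sign in any alternative. No paired analysis was possible because the groups share no animal, litter or replicate numbers in their labels. Depth limits Hilpda most, with 8 reads in the shallowest library.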
